A study of Mus musculus with 4 samples.

Results

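The NRF2 antioxidant genes were examined in RNA sequencing of mouse fetal liver LSK cells, sorted as Lin- Sca-1+ c-Kit+, a fraction that holds hematopoietic stem and multipotent progenitor cells. They were taken as the rows of the deposited table whose gene name is *Nfe2l2*, *Keap1*, *Nqo1*, *Gclm*, *Gclc*, *Txnrd1*, *Srxn1*, *Gsr* or *Slc7a11*, and 9 of 39186 genes matched. The samples were 2 *Pich*-KO and 2 *Pich*-WT libraries of sorted fetal liver cells on the C57BL/6 strain. The *Pich*-KO line carries a germline TALEN deletion in the second exon of *Pich*, an X-linked gene, so every cell of the embryo lacks the protein and not only the blood cells. The labels give no age, sex, litter or pooling for these libraries, and the study's methods sort fetal liver cells from mid-gestation embryos. Nothing states that the samples of a group are separate embryos, and p-values measure the spread between these samples. That spread may be technical for *Pich*-KO. The *Pich*-WT libraries differ in sex-linked reads (below), so they are not repeats of the same sample.

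NRF2, encoded by *Nfe2l2*, is a transcription factor that KEAP1 holds in the cytoplasm and passes to a CUL3 ubiquitin ligase for degradation. Electrophiles and oxidants modify cysteines of KEAP1, NRF2 then accumulates, pairs with a small MAF protein and binds antioxidant response elements in the DNA. Its targets supply and recycle glutathione, reduce thioredoxin and peroxiredoxins and detoxify quinones. In hematopoietic stem cells the pathway is known for its part in redox balance and stem cell maintenance. Much of this control acts on the NRF2 protein, which RNA sequencing does not measure.

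The core of the antioxidant response element, TGACNNNGC, is shown where it lies close to a start site, because the genes below are grouped by their relation to NRF2. It was searched on both strands in the RefSeq promoter windows (GRCm38.p6, 250 bases before to 50 after a start site), of which 7 of the 9 genes had 9. *Gclc* and *Gsr* had no entry. A match was found in 4 of these 9 windows, against 12.4% of the 32851 windows of all genes. The matches are printed on the gene's own strand with 10 bases on each side, and capitals mark the core, which reads as TGACNNNGC in *Nfe2l2* and as its reverse complement in the other three genes.
Nfe2l2: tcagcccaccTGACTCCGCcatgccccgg
Gclm: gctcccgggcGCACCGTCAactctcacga
Txnrd1: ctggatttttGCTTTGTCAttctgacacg
Srxn1: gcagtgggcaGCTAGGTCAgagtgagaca
These lie at chr2:75704885-75704913 on the minus strand for *Nfe2l2*, and on the plus strand at chr3:122245413-122245441 for *Gclm*, chr10:82859104-82859132 for *Txnrd1* and chr2:152105542-152105570 for *Srxn1*. The core starts 240 bases before the start site in *Nfe2l2*, 134 before it in *Gclm*, 92 before it in *Txnrd1* and 28 after it in *Srxn1*. For *Nfe2l2* the bases just after that start site were found in no annotated transcript of the gene, so its distance is less certain. *Txnrd1* has 3 windows, and the match is in the second of them along the chromosome. No match was found in the windows of *Keap1*, *Nqo1* and *Slc7a11*. A match is a string of letters and was not tested for binding.

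The libraries held 14703215 to 20933919 reads on genes. *Ercc6l*, the gene that encodes PICH, kept its transcript in *Pich*-KO, with normalized counts of 1142 and 1232 against 772 and 661 (log2 fold change 0.73, limma adjusted p = 0.00887), so its mRNA does not check the genotype labels. *Pich*-WT replicate 2 stands apart, with 0 reads on 4 Y-linked genes and 699 on *Xist*, where the other libraries had 1607 to 2848 and 4 to 13. The spread between the *Pich*-WT libraries therefore includes a difference of sex. *Kit* and *Ly6a*, which encode the sorted markers c-Kit and Sca-1, were read in every library. *Kit* had 4447 and 2772 normalized counts in *Pich*-KO, against 2328 and 2513 in *Pich*-WT. *Ly6a*, itself an interferon-inducible gene, had 3586 and 2978 against 901 and 1061. Of 9 LSK markers, both included, 1 was higher (*Ly6a*) and 3 lower (*Slamf1*, *Hlf* and *Mecom*). *Hlf* had 652 and 317 against 2172 and 2548, and *Mecom* 216 and 135 against 720 and 751. The sums of the 9 were 18590 to 29774 against 25353 to 26297. *Cd34* alone gave 11424 and 6226 of them in *Pich*-KO, against 8901 and 8940 in *Pich*-WT.

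Markers of other fetal liver cells differed between the groups, and their part in the results below was not tested. Of 20 macrophage markers 19 were lower in *Pich*-KO and 1, *Fcgr1*, was not called, and their summed normalized counts were 15606 to 17750 in *Pich*-KO and 105432 to 111311 in *Pich*-WT. Among the defining markers *C1qa* had 73.1 and 68.2 normalized counts in *Pich*-KO, against 3625 and 3540 in *Pich*-WT. All 9 endothelial markers were lower, with sums of 1032 to 2091 against 26964 to 40225. Of 15 erythroid markers 10 were lower, with sums of 38249 to 41602 against 145688 to 205423. The globin gene *Hba-a1* alone gave 16798 and 18762 of them in *Pich*-KO, against 101298 and 74642 in *Pich*-WT. Another, *Hba-a2*, differed 3.69-fold between the *Pich*-WT libraries. *Tfrc* and *Ank1* were not called, with both *Pich*-KO values above both *Pich*-WT values. Of 12 hepatoblast markers 6 were lower, with sums of 3350 to 4001 against 5234 to 5807. Granulocyte markers had sums of 63735 to 118549 against 16551 to 19253, with 2 of 10 higher. Of all genes tested, 9.60% were called lower and 7.58% higher. Among the Kupffer cell markers *Vsig4* had 2 and 0 reads in *Pich*-KO replicates 1 and 2, and *Cd163* 4 and 2. In the same order *Clec4f* had 2 and 25, *Timd4* 12 and 20, *Marco* 3 and 68 and *Cd5l* 19 and 97. In bulk RNA fewer cells of a type and less RNA per cell cannot be told apart.

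**Figure D1:**
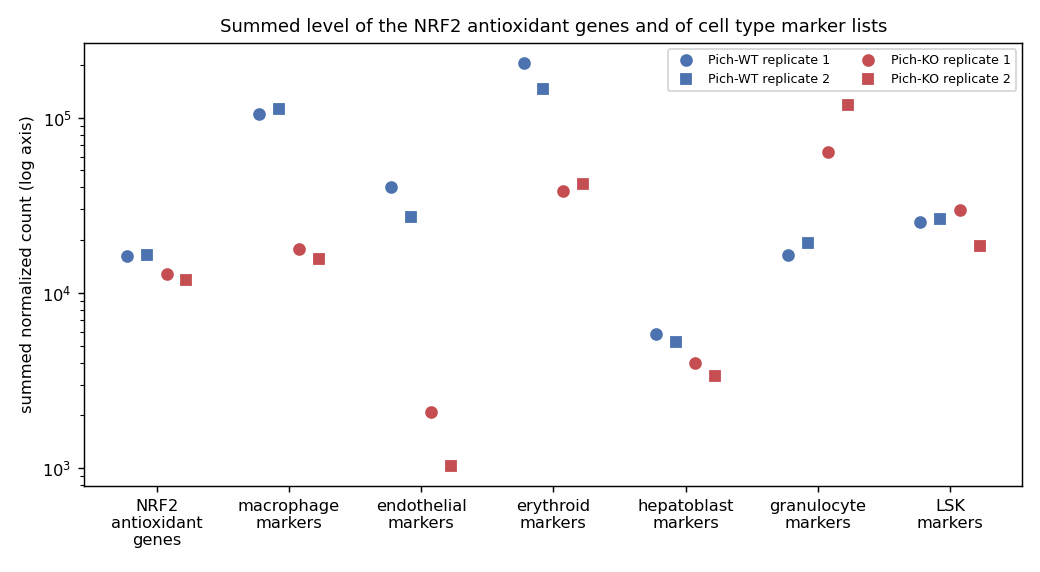
Summed normalized counts (log axis) of the 9 NRF2 antioxidant genes and of marker lists for 6 cell types, 1 point per library. The antioxidant genes sum to 11795 to 12865 in *Pich*-KO and 16241 to 16402 in *Pich*-WT, a smaller gap than that of the macrophage or endothelial markers. A sum weighs the most counted genes most. *Txnrd1* alone gives 4228 to 4754 of it in *Pich*-KO and 5456 to 6310 in *Pich*-WT.

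In the sorted *Pich*-KO libraries 4 of the 9 antioxidant genes were lower than in *Pich*-WT. They were the sulfiredoxin gene *Srxn1*, both subunits of the enzyme that starts glutathione synthesis, *Gclc* and *Gclm*, and the thioredoxin reductase gene *Txnrd1*. Bulk RNA does not assign these differences to a cell type. Their mean levels were lower by 65.1% for *Srxn1*, 55.3% for *Gclc*, 32.9% for *Gclm* and 23.7% for *Txnrd1*. None of the 9 was called higher by limma at an adjusted p of 0.05. At an unadjusted p under 0.05, 1 gene was higher (*Slc7a11*, beside 13.7% of all genes tested) and 6 were lower (beside 15.0% of all genes tested). The call is an adjusted p under 0.05 from limma on log2(normalized count + 1) with Benjamini-Hochberg adjustment over 32428 genes, of which 9.60% were called lower and 7.58% higher.

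Both *Pich*-KO values lay below both *Pich*-WT values in 7 of the 9 genes and above them in 1, where 27.2% and 28.9% of all genes tested did so. The median log2 fold change of the 9 genes was -0.39, beside 0.02 over all genes tested. Among the 13928 genes with at least 10 normalized counts in every sample, which include all 9, 22.9% were called lower and 21.0% higher, and 5 of the 9 were lower (the 4 above and *Nqo1*). In this design of 4 samples the smallest p of an exact two-sided permutation test is 0.333, which is the value of 8 of the 9 genes, and the adjusted p-values depend on a variance estimated jointly over genes. Without the trend that lets the prior variance of limma follow the mean, 0 genes of the whole table passed, and at an unadjusted p under 0.05 3 of the 9 were lower and 1 higher, beside 12.4% and 10.3% of all genes.

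**Figure D2:**
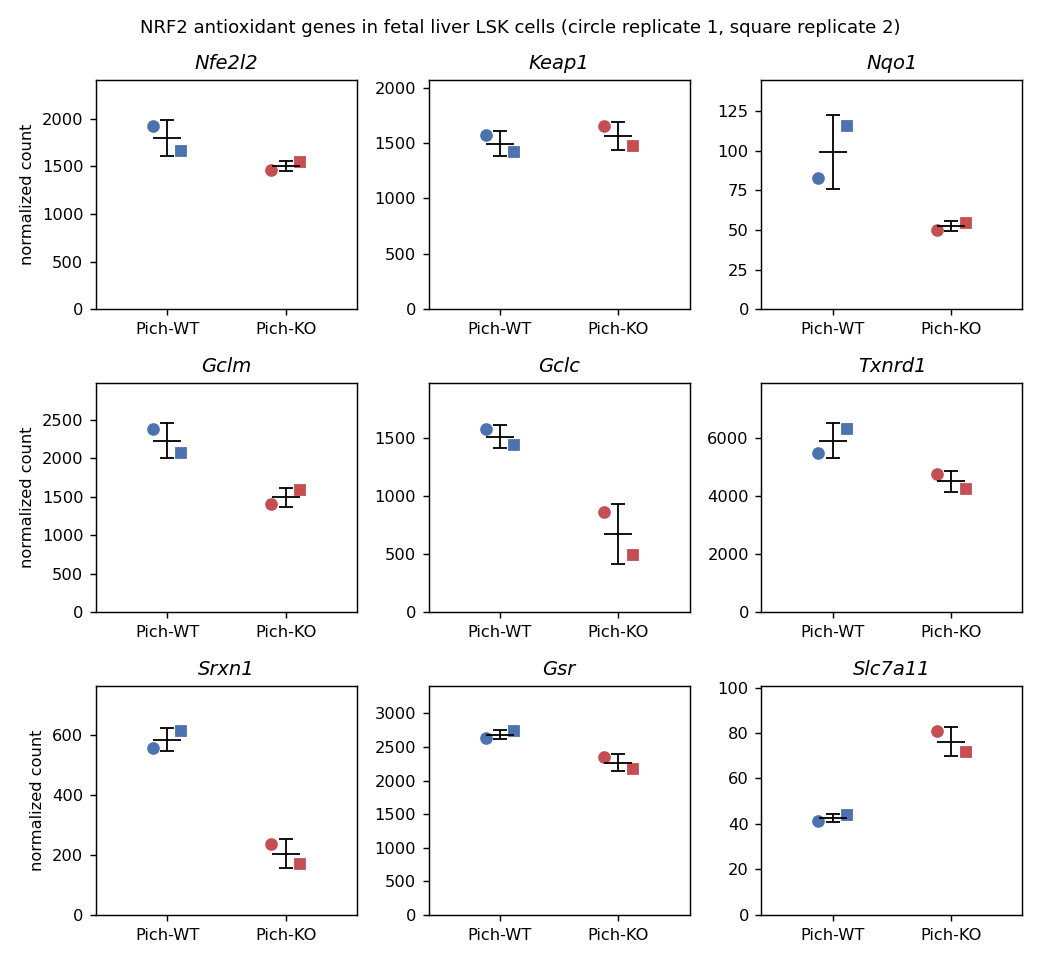
Normalized counts of each gene by group, with circles for replicate 1, squares for replicate 2 and bars for the mean ± SD of 2 samples; each axis starts at 0. The groups overlap in *Keap1* alone, *Slc7a11* is higher in *Pich*-KO, and the other 7 genes are lower.

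Neither regulator passed the test. *Nfe2l2* (ENSMUSG00000015839, chromosome 2, 75675513 to 75704641, minus strand on GRCm38) had 1468 and 1546 normalized counts in *Pich*-KO, against 1930 and 1667 in *Pich*-WT. The groups did not overlap, but the log2 fold change of -0.25 (95% interval -0.53 to 0.03, limma adjusted p = 0.224) was not past the threshold. *Keap1* (ENSMUSG00000003308, chromosome 9, 21229730 to 21239361, minus strand), the adaptor that marks NRF2 for degradation, had 1658 and 1477 against 1576 and 1417. These values overlapped, and its log2 fold change was 0.07 (95% interval -0.22 to 0.35, limma adjusted p = 0.785). The sign of the *Keap1* value turned to -0.02 without *Pich*-KO replicate 1 and -0.01 without *Pich*-WT replicate 2. The transcript of *Keap1* shares 510 exonic bases with the opposite-strand gene *Gm16754*, which had 9 to 12 reads per library.

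Within single libraries the log2 ratio of *Nfe2l2* to *Keap1* was -0.18 and 0.07 in *Pich*-KO, against 0.29 and 0.23 in *Pich*-WT. The ratio was lower in both *Pich*-KO libraries, by a mean of 0.32, and the exact permutation p of 0.333 is the smallest that 4 samples allow. Of 78 pathway genes with a mean of at least 100 normalized counts, the 3 whose profile over the 4 libraries lay nearest to that of *Nfe2l2* were *Glo1*, *Glrx5* and *Taldo1*. Their Euclidean distances on centred log2 values were 0.013, 0.07 and 0.09. None of these genes was called, which largely follows from picking them for likeness to a gene that was not called.

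Glutathione is made in the cell from cysteine, glutamate and glycine. Its first, rate-limiting step is run by glutamate-cysteine ligase, a pair of a catalytic subunit, *Gclc*, and a modifier subunit, *Gclm*. *Gclc* (ENSMUSG00000032350, chromosome 9, 77754535 to 77794485, plus strand) had 857 and 492 normalized counts in *Pich*-KO, against 1578 and 1440 in *Pich*-WT. Both *Pich*-KO libraries were below both *Pich*-WT libraries, and they differed from each other by 1.74-fold, the widest gap within a group among the 9 genes. The log2 fold change was -1.21 (SE 0.24, limma adjusted p = 0.0101). It was -1.61 without *Pich*-KO replicate 1 and -0.81 without *Pich*-KO replicate 2. *Gclm* (ENSMUSG00000028124, chromosome 3, 122245557 to 122270732, plus strand) had 1406 and 1581 against 2386 and 2065, and its log2 fold change was -0.57 (SE 0.12, limma adjusted p = 0.0157). Of its 6291 exonic bases, 296 overlap *Gm17494* on the opposite strand, which had 25 to 64 reads per library, and 244 overlap *Gm6061* on the same strand.

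The subunits did not fall by the same amount in each library. The log2 ratio of *Gclc* to *Gclm* was -0.71 in *Pich*-KO replicate 1 and -1.68 in replicate 2, against -0.60 and -0.52 in *Pich*-WT. The difference between the group means was -0.64, with the smallest possible exact permutation p of 0.333, and most of it lay in *Pich*-KO replicate 2. Of the *Pich*-KO pair, that library also had the lower *Srxn1*, *Txnrd1*, *Gsr*, *Keap1* and *Slc7a11* values, but the higher *Nfe2l2*, *Nqo1* and *Gclm* values. Its marker sums differed from those of *Pich*-KO replicate 1 as well. They were higher for granulocyte (118549 against 63735) and erythroid markers (41602 against 38249). They were lower for LSK (18590 against 29774), endothelial (1032 against 2091), macrophage (15606 against 17750) and hepatoblast markers (3350 against 4001). Their part in the *Gclc* value was not tested.

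*Slc7a11* encodes xCT, the transporter that exchanges cystine for glutamate and brings in the cysteine that glutathione synthesis needs. *Slc7a11* (ENSMUSG00000027737, chromosome 3, 49892526 to 50443614, minus strand) had 80.7 and 71.6 normalized counts in *Pich*-KO, against 41.4 and 44 in *Pich*-WT, from 44 to 74 reads. It was the gene that stood above *Pich*-WT in both libraries, by 1.78-fold, but its log2 fold change of 0.82 (95% interval 0.14 to 1.5, limma adjusted p = 0.106) was not past the threshold. With quantile normalization between samples, which also moved the median of all genes from 0.02 to 0.08, it was 1.28 and passed (limma adjusted p = 0.0277). *Slc3a2*, named after its values were seen because it encodes the heavy chain that carries xCT to the membrane, had 5584 and 4979 against 5864 and 5839 (limma adjusted p = 0.333).

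*Gsr* encodes glutathione reductase, which returns oxidized glutathione to its reduced form with NADPH. *Gsr* (ENSMUSG00000031584, chromosome 8, 33652523 to 33698163, plus strand) had 2353 and 2175 normalized counts in *Pich*-KO, against 2635 and 2731 in *Pich*-WT. The groups were separate, with a log2 fold change of -0.25 (95% interval -0.48 to -0.01, limma adjusted p = 0.157) that missed the threshold over all genes.

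The thioredoxin arm held the largest fold change of the 9 genes. *Srxn1* encodes sulfiredoxin, which repairs overoxidized peroxiredoxins. *Srxn1* (ENSMUSG00000032802, chromosome 2, 152105516 to 152111376, plus strand) had 238 and 171 normalized counts in *Pich*-KO, against 557 and 612 in *Pich*-WT. Both *Pich*-KO values were below 0.5 of the lower *Pich*-WT value, and the log2 fold change was -1.53 (SE 0.21, limma adjusted p = 0.00173). *Prdx1*, a peroxiredoxin that sulfiredoxin acts on and here 1 of the other NRF2 targets, had 13339 and 13566 against 14583 and 13726 (limma adjusted p = 0.557).

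*Txnrd1* encodes the cytosolic thioredoxin reductase, a selenoprotein. *Txnrd1* (ENSMUSG00000020250, chromosome 10, 82833951 to 82897712, plus strand) was the most counted of the 9 genes, with 4754 and 4228 normalized counts in *Pich*-KO, against 5456 and 6310 in *Pich*-WT. The groups did not overlap, and the log2 fold change was -0.39 (SE 0.11, limma adjusted p = 0.041). This call is close to the threshold and was lost with a pseudocount of 0.1 (limma adjusted p = 0.071) and without a filter on the mean (limma adjusted p = 0.0946).

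*Nqo1* encodes the quinone reductase that is widely read as the marker of NRF2 activity. *Nqo1* (ENSMUSG00000003849, chromosome 8, 107388225 to 107403206, minus strand) was low, with 50.2 and 54.6 normalized counts in *Pich*-KO, against 82.8 and 116 in *Pich*-WT, from 46 to 116 reads. The *Pich*-KO values were the lower ones, and the log2 fold change of -0.89 (95% interval -1.58 to -0.21, limma adjusted p = 0.0826) was not past the threshold. It passed among the genes with at least 10 normalized counts in every sample (limma adjusted p = 0.0477), and was -0.37 with quantile normalization (limma adjusted p = 0.473).

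**Figure D3:**
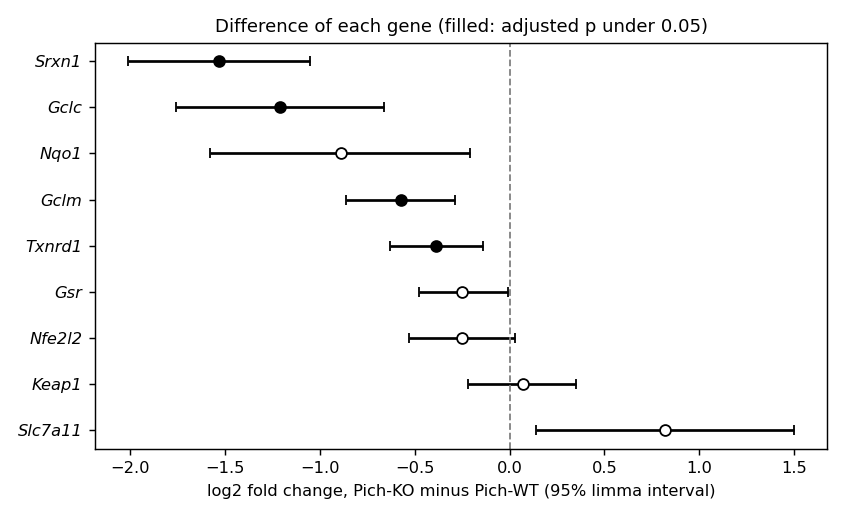
Log2 fold change of each gene, *Pich*-KO minus *Pich*-WT, with its 95% interval from limma; filled points passed an adjusted p of 0.05 over all genes. *Srxn1* and *Gclc* are below -1, *Keap1* is at 0.07, and *Slc7a11* is the gene whose whole interval lies above 0.

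On the scale of normalized counts per kilobase of gene length, which allows levels of different genes to be compared, the order was almost the same in both groups. *Gsr* was highest, at 822 ± 45.7 (SD, n = 2) in *Pich*-KO and 974 ± 24.6 in *Pich*-WT, followed by *Txnrd1* at 634 ± 52.6 and 830 ± 85.3 and *Nfe2l2* at 397 ± 14.5 and 474 ± 48.9. *Gclc*, *Gclm* and *Keap1* came next. In *Pich*-WT their levels per kilobase were 401 ± 25.9 for *Gclc*, 354 ± 36.1 for *Gclm* and 319 ± 23.9 for *Keap1*, and the values of *Gclm* and *Keap1* overlapped. In *Pich*-KO the order of these 3 was turned round, with *Keap1* at 334 ± 27.3, *Gclm* at 237 ± 19.7 and *Gclc* at 179 ± 68.5, the values of *Gclm* and *Gclc* overlapping. *Srxn1* followed at 72.4 ± 16.9 in *Pich*-KO and 207 ± 13.7 in *Pich*-WT, then *Nqo1* at 33.7 ± 2.0 and 64.0 ± 15.1. *Slc7a11* was lowest in both groups, at 5.47 ± 0.462 and 3.07 ± 0.131, and its listed length of 13922 bases is the longest of the 9.

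The calls depended on all 4 libraries being present. Each fit with 1 library left out keeps a lone sample in a group, which is assumed to vary like the other group. Without *Pich*-KO replicate 1, *Gclc* (limma adjusted p = 0.0397) and *Srxn1* (limma adjusted p = 0.0416) still passed, while *Gclm* (limma adjusted p = 0.159) and *Txnrd1* (limma adjusted p = 0.155) did not. In that fit 3.70% of all genes were lower and 1.70% higher. Without *Pich*-KO replicate 2, *Pich*-WT replicate 1 or *Pich*-WT replicate 2, 0 genes of the whole table passed with limma. At an unadjusted p under 0.05 these fits had 4051, 2951 and 3078 genes lower, which were 12.6%, 8.87% and 9.49% of all genes, and among them were 3, 3 and 2 of the 9. For each of the 4 genes both *Pich*-KO values lay below both *Pich*-WT values, so leaving out 1 library could not turn the sign. Their log2 fold changes in the 4 fits ran from -1.29 to -1.77 for *Srxn1* and -0.81 to -1.61 for *Gclc*. They ran from -0.47 to -0.68 for *Gclm* and -0.28 to -0.49 for *Txnrd1*. Against *Pich*-WT replicate 1 alone, which like the *Pich*-KO pair has reads on Y-linked genes, they were -1.46, -1.28, -0.68 and -0.28 in the same order.

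Other processing gave similar counts with a few exceptions. Of the 9 genes 3 were lower with a pseudocount of 0.1 (8.18% of all genes lower, 6.45% higher), and 2 without a filter on the mean (5.94% lower, 4.70% higher). With quantile normalization 4 were lower and 1 higher (7.30% and 8.37% of all genes). The same 4 genes were lower with edgeR on the recovered reads (20.7% of the genes it tested lower, 18.6% higher) and with DESeq2 (8.10% lower, 6.65% higher), and both called 0 of the 9 higher.

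The wider pathway was read from 5 lists of 96 genes. Together 26 were lower (27.1%, beside 9.60% of all genes tested) and 9 higher (9.38%, beside 7.58%). Among genes with at least 10 normalized counts in every sample, 26 of 87 were lower and 12 higher, beside 22.9% and 21.0% of all such genes. Their median log2 fold change was -0.16 over the 96 genes, beside 0.02 over all genes tested. Every list held calls in both directions. The macrophage and endothelial marker sums moved with the group in the same libraries, and their part in these calls was not tested. Of the 96 genes 8 were lower and 1 higher without *Pich*-KO replicate 1, and 0 passed in limma without *Pich*-KO replicate 2, *Pich*-WT replicate 1 or *Pich*-WT replicate 2, where at an unadjusted p under 0.05 28, 19 and 25 were lower (29.2%, 19.8% and 26.0%) and 10, 9 and 8 higher (10.4%, 9.38% and 8.33%). The shares of all genes in these fits were 12.6%, 8.87% and 9.49% lower and 11%, 9.35% and 8.13% higher.

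Among 13 partners and regulators of NRF2, 2 were higher (15.4%) and 3 lower (23.1%), beside 7.58% and 9.60% of all genes tested. Of the genes with at least 10 normalized counts in every sample, 21.0% were higher and 22.9% lower. The counts of this list and of those below can be set beside these shares too. The median log2 fold change of the 13 was -0.07 and changed sign, to 0.01 without *Pich*-KO replicate 2 and to 0.08 without *Pich*-WT replicate 1. *Mafk*, a small MAF partner of NRF2, rose from 908 and 1004 to 1475 and 1302 normalized counts (log2 fold change 0.54, limma adjusted p = 0.0261, and 0.0541 without a filter on the mean). *Rbx1*, the RING subunit of the CUL3 ligase, rose from 3129 and 2906 to 3729 and 4017 (log2 fold change 0.36, limma adjusted p = 0.0391). This call was lost with a pseudocount of 0.1 (limma adjusted p = 0.0546), without a filter on the mean (limma adjusted p = 0.0703) and with quantile normalization (0.25, limma adjusted p = 0.104). *Mafg*, another small MAF, fell from 1038 and 867 to 398 and 525 (log2 fold change -1.05, limma adjusted p = 0.0056), so the 2 called small MAF genes went opposite ways. *Bach2*, a repressor of the BACH family best known in lymphocytes, fell from 170 and 136 to 79.6 and 40.9 (log2 fold change -1.40, limma adjusted p = 0.0297). The *Bach2* call was lost under the same settings (limma adjusted p = 0.0594, 0.0804 and 0.17, the last with a log2 fold change of -0.90), and its log2 fold change was -0.93 without *Pich*-KO replicate 2 and -1.87 without *Pich*-KO replicate 1.

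Of 26 other NRF2 target genes 3 were higher (11.5%, beside 7.58% of all genes tested) and 8 lower (30.8%, beside 9.60%). Their median was -0.45, but -0.28 with quantile normalization and -0.25 without *Pich*-KO replicate 1. *Hmox1*, heme oxygenase 1, which is also in the macrophage list, had 947 and 405 normalized counts in *Pich*-KO, against 9994 and 10790 in *Pich*-WT (log2 fold change -4.07, limma adjusted p = 0.00017). *Akr1b8*, an aldo-keto reductase with close paralogs that could share its reads, had 65.4 and 38.6 against 786 and 567 (log2 fold change -3.70, limma adjusted p = 0.000173). The targets that rose most were *Abcc1*, an exporter of glutathione conjugates, and *Tkt*, the transketolase of the pentose phosphate pathway. *Abcc1* had 1397 and 1100 against 845 and 655 (log2 fold change 0.74, limma adjusted p = 0.0245, but 0.0517 at a pseudocount of 0.1 and 0.0719 over unfiltered genes), and *Tkt* had 11963 and 12992 against 8479 and 8362 (log2 fold change 0.57, limma adjusted p = 0.00168).

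Of 26 genes of glutathione use and turnover (median -0.22, and -0.15 with quantile normalization), 1 was higher and 7 lower. These were 3.85% and 26.9%, beside 7.58% and 9.60% of all genes tested. The secreted glutathione peroxidase *Gpx3* fell from 2279 and 2402 to 240 and 280 normalized counts (log2 fold change -3.17, limma adjusted p = 2.2e-05). *Oplah*, the 5-oxoprolinase of the glutathione cycle, fell from 152 and 175 to 18.5 and 22.7 (log2 fold change -2.93, limma adjusted p = 0.000496). The gene called higher was *Glrx3*, a glutaredoxin that carries iron-sulfur clusters, from 3176 and 2910 to 4731 and 4421 (log2 fold change 0.59, limma adjusted p = 0.0044). *Chac1* had the largest log2 fold change of the list, 1.11, but was not called (limma adjusted p = 0.0695). Among the called genes of the list, the next after *Glrx3* in signed order was *Mgst3*, a microsomal glutathione transferase. It fell from 1672 and 1424 to 798 and 908 (log2 fold change -0.86, limma adjusted p = 0.00426).

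Of 20 thioredoxin and peroxiredoxin genes (median -0.14, but 0.03 with quantile normalization), 1 was higher and 6 lower. *Prdx6*, a peroxiredoxin that uses glutathione, rose from 7066 and 6248 to 9355 and 9721 (log2 fold change 0.52, limma adjusted p = 0.00483). *Sesn1*, a p53-induced sestrin, fell from 3021 and 3094 to 1178 and 905 (log2 fold change -1.57, limma adjusted p = 0.000294). *Msrb3*, a methionine sulfoxide reductase, fell from 316 and 244 to 131 and 109 (log2 fold change -1.21, limma adjusted p = 0.00858, but -0.83 and 0.0525 with quantile normalization). *Txndc12*, a thioredoxin-like protein of the endoplasmic reticulum, fell from 1102 and 870 to 640 and 634 (log2 fold change -0.62, limma adjusted p = 0.0296, but 0.0657 without a filter on the mean).

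The 11 genes that make or remove superoxide and hydrogen peroxide were split. There were 2 higher (18.2%, beside 7.58% of all genes tested) and 2 lower (18.2%, beside 9.60%). Their median was 0.04, and -0.03 without *Pich*-KO replicate 2 or without *Pich*-WT replicate 2. The mitochondrial superoxide dismutase *Sod2* rose from 1779 and 1750 to 2604 and 2862 normalized counts (log2 fold change 0.63, limma adjusted p = 0.00491). *Ncf1*, a cytosolic subunit of the phagocyte NADPH oxidase, rose from 2344 and 2043 to 3164 and 3682 (log2 fold change 0.64, limma adjusted p = 0.00823), while *Cyba*, a membrane subunit of the same oxidase, fell from 6989 and 6787 to 4137 and 4562 (log2 fold change -0.66, limma adjusted p = 0.00162). *Cat*, catalase, fell from 4167 and 3678 to 2692 and 2453 (log2 fold change -0.61, limma adjusted p = 0.0062).

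**Figure D4:**
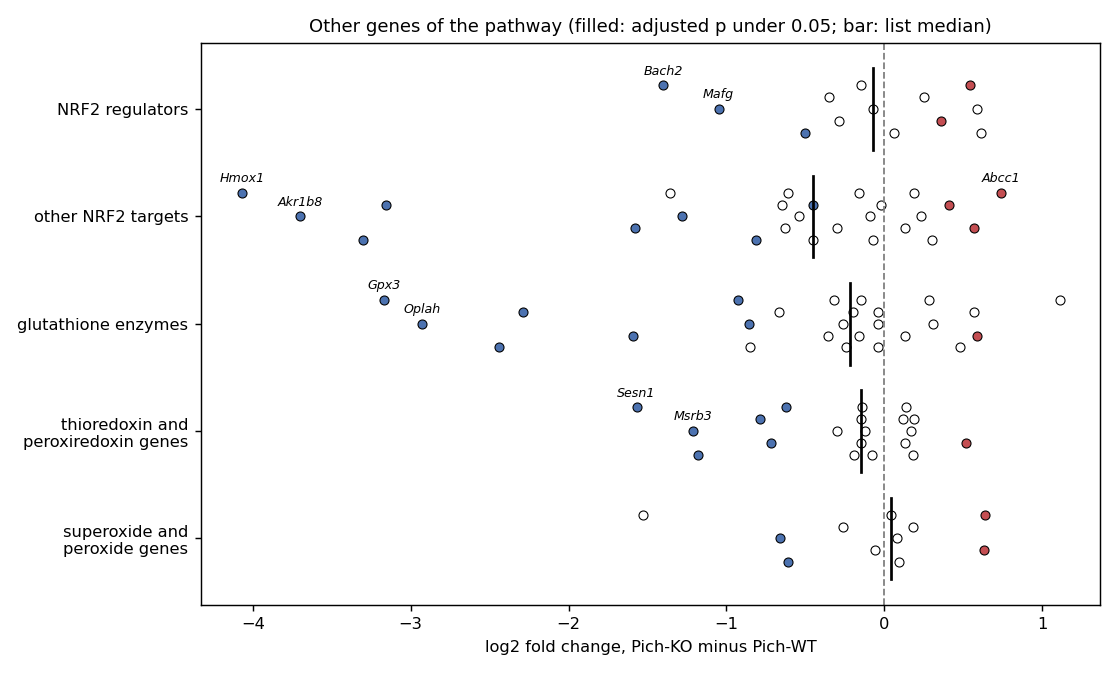
Log2 fold change, *Pich*-KO minus *Pich*-WT, of the 96 genes in 5 pathway lists, 1 point per gene; filled points passed an adjusted p of 0.05 (blue lower, red higher), and vertical bars are list medians. The 26 blue points outnumber the 9 red ones, and the points furthest left are *Hmox1* at -4.07 and *Akr1b8* at -3.70.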

How the data were processed

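RNA of sorted fetal liver LSK cells was sequenced from TruSeq libraries. The deposited table gives, per gene and sample, a signal that the authors made by dividing read counts by a size factor per sample, and it lists gene lengths and coordinates. Every value was a whole multiple of a step (100%, tolerance 0.01 read), which gave back the reads. The submitters' processing notes name Bowtie 0.12.2, mm8 and mm9, whereas 97.8% of the 39131 genes found in GENCODE M21 had its GRCm38 start and end. The counter and the strand setting are not given in the sources used here. The deposited columns of the authors' own comparison (means, fold changes, p-values) were not used.

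Groups were compared by limma 3.58.1 (R 4.3.3) on log2(value + 1) with its variance trend, over genes with a mean of at least 1. Fold changes on this scale understate changes of low genes. Alternatives were a pseudocount of 0.1, no filter, at least 10 in every sample, no variance trend, quantile normalization, edgeR 4.0.16 with TMM and DESeq2 1.42.0 on the recovered reads, a replicate block and leaving out each sample. Named genes are the 9 members, the called genes of each other pathway list with the 2 largest and the 2 smallest (most negative) signed log2 fold changes, the 3 genes nearest to *Nfe2l2*, *Kit*, *Ly6a* and *Ercc6l*; others were named after their values were seen. The members, lists and tests were chosen with earlier results of these data known. The procedure was tested on simulated data.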

Additional observations from a re-analysis of the deposited data

How the results depend on the processing

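*Srxn1*, *Gclc*, *Gclm* and *Txnrd1* were lower in *Pich*-KO in all 12 alternative fits. For each of them both *Pich*-KO values lay below both *Pich*-WT values, so leaving out 1 library could not turn the sign. The other alternatives use the same 4 libraries, so the shared sign is no separate evidence of direction. The number of the 9 genes called lower was 4 and that called higher 0. Those lower numbered 2 without a filter on the mean, where *Gclc* had an adjusted p of 0.0501 (limma), and 0 without a variance trend, where 3 had an unadjusted p under 0.05. Those higher numbered 1 with quantile normalization, *Slc7a11*. Without a variance trend, limma also called 0 genes higher and 0 lower in the whole table and 0 and 0 in the 5 pathway lists, although 3343 and 4034 genes had an unadjusted p under 0.05. edgeR and DESeq2 on recovered reads both called the 4 genes. edgeR called 3097 genes higher and 3436 lower in the whole table, beside 2459 and 3113 with limma.

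With 1 library left out, the counts ran from 0 to 548 for all genes higher and from 0 to 1193 for all genes lower, from 0 to 2 for the antioxidant genes lower, from 0 to 1 for pathway genes higher and from 0 to 8 for pathway genes lower. In these fits 1 residual degree of freedom is left. The *Keap1* value, 0.07 with all libraries, ranged from -0.02 to 0.15, and turned to -0.02 without *Pich*-KO replicate 1 and -0.01 without *Pich*-WT replicate 2. The cause was not tested.

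The labels do not say whether same-numbered samples are paired. Their deviations had a correlation of 0.013 over 10544 genes, which are not independent. This compares a single difference per group, so it cannot exclude a shared batch. With the replicate block 5 of the 9 genes were lower, *Nqo1* being added (limma adjusted p = 0.0489), and 3122 genes were higher and 3874 lower in all. All 20 named genes of the pathway lists kept their call with the block, edgeR and DESeq2. The block fit leaves a single residual degree of freedom, so its p-values rest on a variance estimated jointly over genes. All 20 lost the call without a variance trend, 5 without a filter on the mean, 3 with a pseudocount of 0.1 and 3 with quantile normalization. *Slc7a11* and *Nqo1* rest on 116 reads or fewer per library, which limits both.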

Other observations

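The list of other NRF2 targets holds 4 genes of the pentose phosphate pathway, the source of much of the NADPH that *Gsr* and *Txnrd1* use, a grouping chosen after their values were seen. Besides *Tkt*, described above (log2 fold change 0.57, limma adjusted p = 0.00168), *Pgd* rose from 4995 and 4855 to 6326 and 6795 normalized counts (log2 fold change 0.41, limma adjusted p = 0.0119). The other two were not called. *G6pdx* had 3939 and 4357 against 3757 and 3494 (log2 fold change 0.19, limma adjusted p = 0.247), and *Taldo1* had 6755 and 6628 against 8804 and 7737 (log2 fold change -0.30, limma adjusted p = 0.0533).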
